A study of Mus musculus with 15 samples.

Results

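The genes that give a mast cell its main receptors, together with the ligand of the Kit receptor, the histamine-making enzyme, a lineage transcription factor and a chemokine, were followed in mouse skin. They were the 10 genes named Kit, Kitl, Fcer1a, Ms4a2, Fcer1g, Mrgprb1, Mrgprb2, Gata2, Hdc and Cxcl12, taken by name from the 54532 genes of the deposited skin table. Each name matched 1 gene, and all 10 passed the filter on low values that was applied before testing.

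Mast cells are tissue-resident granulocytes of the dermis that store histamine and proteases in granules. Their survival in skin depends on the receptor tyrosine kinase Kit and on its ligand, stem cell factor, which is encoded by Kitl and made by fibroblasts, endothelium and keratinocytes. They release their granules when IgE on the receptor FcεRI is cross-linked, or when basic peptides and drugs engage Mas-related receptors. Basophils, short-lived blood granulocytes that enter inflamed skin, also carry FcεRI, need Gata2 and make histamine.

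The study deposited skin RNA sequencing from mice labelled Trpv3-knockout or wild type, either treated with MC903 for 7 days or left untreated, to follow what the keratinocyte cation channel Trpv3 does to mast cells. MC903 is calcipotriol, a vitamin D analogue whose application to mouse skin gives a dermatitis used as a model of atopic dermatitis. There were 3 libraries each of MC903-treated knockout, MC903-treated wild type, untreated knockout and untreated wild type skin, called here MC903 KO, MC903 WT, untreated KO and untreated WT. The design text speaks of conditional knockouts, and the sources used here do not give the Cre driver, the deleted exons, the strain, sex or age, or a vehicle for the untreated skin. Whether each library is a separate animal is not in the labels, and the spread behind every p-value here may therefore be technical.

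Trpv3 itself was measured at 6.82, 6.78 and 4.73 FPKM (fragments per length of gene and per depth of library) in MC903 KO libraries, against 16.1, 17.0 and 19.0 FPKM in MC903 WT libraries. In untreated skin it was measured at 3.17, 3.64 and 2.62 FPKM in KO libraries and at 2.06, 2.71 and 1.13 FPKM in WT libraries. The MC903 groups did not overlap, whereas the untreated groups overlapped and the mean was higher in the skin labelled knockout. In MC903 skin the log2 difference of KO over WT was -1.45 ± 0.22 for Trpv3 (SE). The 7 basal keratinocyte markers described below had a median difference of -1.38 there. The gene total therefore does not by itself check the knockout label in either treatment, and genotype is given as labelled throughout. The libraries held 16869716 to 18485698 reads assigned to genes. Of the 17646 genes that reached 0.5 FPKM in at least 3 libraries, 52.1% differed between MC903 KO and MC903 WT skin and 11.7% between untreated KO and untreated WT skin (limma, adjusted p under 0.05).

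The mast cell label was checked on 8 protease genes of connective tissue and mucosal mast cells, all of them in the table. Chymase Cma1 averaged 94.5 ± 4.39 FPKM in MC903 KO, 49.1 ± 3.74 FPKM in MC903 WT, 75.5 ± 0.917 FPKM in untreated KO and 76.0 ± 11.3 FPKM in untreated WT skin (SD, n = 3 each). Mcpt4, Tpsb2 and Cpa3 were also well above the filter in every group. The mucosal protease gene Mcpt1 stood at 0 in the 6 untreated libraries, and Mcpt2 at 0 in the untreated KO ones. In bulk tissue, fewer mast cells and less RNA per mast cell cannot be told apart.

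Promoter sequence is shown for 5 of the 10 genes because Gata2, a factor that binds GATA motifs, is itself among them, and because these 5 windows hold such a motif. Each window runs from 250 bases before to 50 bases after the RefSeq start on mouse build GRCm38.p6, written 5′ to 3′ on the gene's own strand. Capitals mark, on either strand, a GATA form, which is A or T, then GATA, then A or G, and in Fcer1a also 1 match, on the minus strand, to the E-box form CATGTG. The RefSeq start used for Hdc lies inside the gene as the deposited table bounds it.
Fcer1a, chr1:173227180-173227479, minus strand: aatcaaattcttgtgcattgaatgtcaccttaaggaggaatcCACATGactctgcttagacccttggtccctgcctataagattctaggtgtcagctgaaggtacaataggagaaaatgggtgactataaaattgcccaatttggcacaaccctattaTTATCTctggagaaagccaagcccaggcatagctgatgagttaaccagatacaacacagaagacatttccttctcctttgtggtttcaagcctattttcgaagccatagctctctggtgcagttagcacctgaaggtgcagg
Ms4a2, chr19:11623670-11623969, minus strand: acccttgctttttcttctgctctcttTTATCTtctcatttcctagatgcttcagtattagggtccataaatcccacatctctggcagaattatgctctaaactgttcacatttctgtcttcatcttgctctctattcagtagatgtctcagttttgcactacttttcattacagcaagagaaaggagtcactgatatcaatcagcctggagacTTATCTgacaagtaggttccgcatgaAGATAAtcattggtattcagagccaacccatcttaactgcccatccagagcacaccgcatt
Mrgprb1, chr7:48456293-48456592, minus strand: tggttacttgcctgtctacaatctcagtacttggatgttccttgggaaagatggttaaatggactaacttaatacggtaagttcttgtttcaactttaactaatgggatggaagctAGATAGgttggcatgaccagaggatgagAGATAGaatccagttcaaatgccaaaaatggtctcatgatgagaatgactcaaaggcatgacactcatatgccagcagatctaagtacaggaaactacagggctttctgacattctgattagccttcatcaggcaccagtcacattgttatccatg
Mrgprb2, chr7:48558037-48558336, minus strand: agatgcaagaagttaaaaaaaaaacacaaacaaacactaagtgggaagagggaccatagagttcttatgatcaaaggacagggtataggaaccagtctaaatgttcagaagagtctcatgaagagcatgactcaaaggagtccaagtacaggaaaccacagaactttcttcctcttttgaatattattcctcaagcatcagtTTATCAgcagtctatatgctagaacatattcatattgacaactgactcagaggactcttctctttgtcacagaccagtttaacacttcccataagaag
Hdc, chr2:126618629-126618928, minus strand: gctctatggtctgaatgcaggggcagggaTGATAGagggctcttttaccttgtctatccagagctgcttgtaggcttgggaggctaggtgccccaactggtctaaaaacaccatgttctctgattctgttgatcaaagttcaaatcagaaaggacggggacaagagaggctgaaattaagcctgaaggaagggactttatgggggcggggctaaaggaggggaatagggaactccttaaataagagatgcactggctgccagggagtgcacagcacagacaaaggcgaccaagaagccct

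The β chain gene Ms4a2 held 3 of these GATA forms, of which the last lay 11 bases before the start. Mrgprb1 held 2, and Fcer1a, Mrgprb2 and Hdc held 1 each. The windows of Kit, Kitl, Fcer1g, Gata2 and Cxcl12 held none. Among all 32851 RefSeq promoter windows of this length, 29.8% held at least 1 of the GATA forms and 20.4% at least 1 of the E-box forms CACGTG and CATGTG. Mrgprb1 and Mrgprb2 are neighbours on chromosome 7, at chr7:48444113-48456342 and chr7:48550965-48558086 on mm10. Aligned end to end, their windows had 48.1% identity, and 4 other pairs of these windows had 47.5% to 51.4%. Both windows nevertheless hold the stretches gtctcatga, atgactcaaagg and aagtacaggaaac, in that order. The end-to-end value therefore does not measure how alike parts of the 2 windows are. A match is a description of these letters and not evidence of binding.

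FPKM is per length, so levels can be set side by side between genes. Fcer1g was the most abundant of the 10 in every group, at 156 ± 26.1 FPKM in MC903 KO, 74.1 ± 9.94 FPKM in MC903 WT, 45.6 ± 4.80 FPKM in untreated KO and 43.0 ± 3.32 FPKM in untreated WT skin (SD, n = 3 each). Cxcl12 came next in each group. The least abundant was Mrgprb2 in both MC903 groups, Fcer1a in untreated KO skin and Hdc in untreated WT skin.

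**Figure D1:**
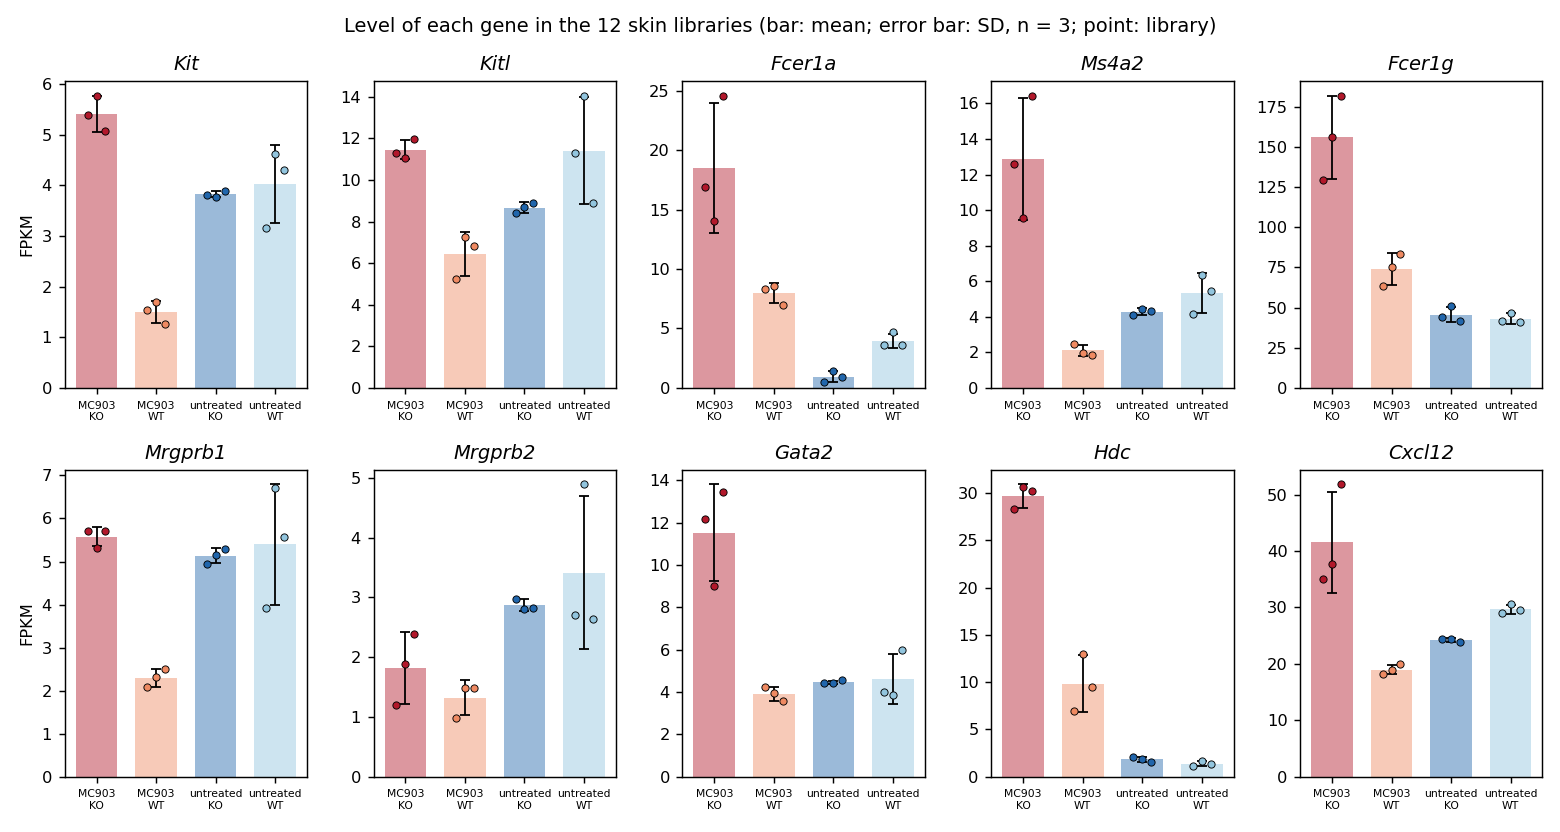
Level of each of the 10 genes in FPKM (vertical axis, from 0, its own scale per gene) in MC903 KO, MC903 WT, untreated KO and untreated WT skin; bars are means, error bars SD of 3 libraries and points single libraries. The 3 MC903 KO libraries lie above all 3 MC903 WT libraries for every gene except Mrgprb2.

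In MC903-treated skin, 9 of the 10 genes were higher in knockout-labelled than in wild type skin, and none was lower. Across all tested genes, 25.9% were higher and 26.1% lower in that comparison. The same 9 genes had groups that did not overlap, where 31% of all tested genes did so in the higher direction. The median log2 difference was 1.13 over the 10 genes and -0.03 over all tested genes. Ms4a2 had the 33rd highest difference of the 17646 genes.

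In untreated skin, by contrast, Fcer1a alone passed the test, and it was lower in the skin labelled knockout. Across all tested genes, 7.15% were higher and 4.55% lower there. No gene of the 10 was higher without overlap, against 16.9% of all tested genes, and Fcer1a and Cxcl12 were lower without overlap, against 14.2% of all tested genes. The difference of genotype effects between the treatments was tested directly, as the difference of the MC903 response, and passed for 9 of the 10 genes. All 9 differences were positive, where 39.7% of all tested genes passed, 20% in that direction and 19.7% in the other, and the median over the 10 genes was 1.33 against -0.01 over all tested genes.

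Within the knockout-labelled skin, MC903 raised 7 of the 10 genes and lowered none, where 47.9% of all tested genes changed, 25% up and 23% down. Within the wild type skin it raised Fcer1a, Fcer1g and Hdc and lowered 6 genes, where 63% of all tested genes changed, 32.6% up and 30.3% down. Groups without overlap numbered 9 higher and 1 lower in knockout-labelled skin, against 32% and 31% of all tested genes, and 3 higher and 6 lower in wild type skin, against 33% and 31.1%. The median log2 change over the 10 genes was 1.0 in knockout-labelled and -0.70 in wild type skin, and over all tested genes it was -0.00 and 0.02. With TPM, a scaling in which every library has the same sum, the median over all genes shifted by more than 0.1 in every comparison but that of untreated skin, and the calls of Kit, Fcer1a and Fcer1g that it ended are given with those genes.

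**Figure D2:**
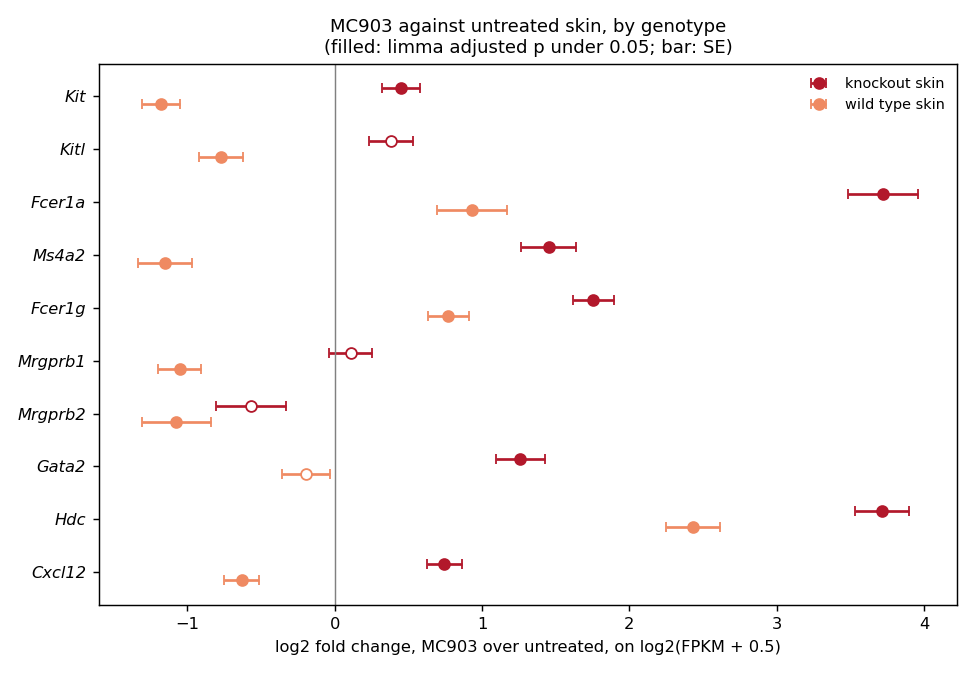
Log2 fold change of MC903 over untreated skin on log2(FPKM + 0.5) (horizontal axis) for each gene (rows), in knockout-labelled skin (red) and wild type skin (orange); points are estimates, bars are standard errors, and filled points passed limma at an adjusted p under 0.05. Kit, Ms4a2 and Cxcl12 lie right of 0 in knockout-labelled skin and left of 0 in wild type skin, each with an adjusted p under 0.05, while Hdc lies far to the right in both.

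Kit, the receptor for stem cell factor, is carried by mast cells and also by melanocytes. The gene lies at chr5:75574916-75656722 on mm10, and values are per gene over its exons. It was measured at 5.39, 5.77 and 5.07 FPKM in MC903 KO libraries and at 1.53, 1.69 and 1.26 FPKM in MC903 WT libraries. Untreated skin gave 3.82, 3.76 and 3.89 FPKM in KO libraries and 3.16, 4.63 and 4.30 FPKM in WT libraries. The order was MC903 KO, then the untreated groups, which overlapped, then MC903 WT, and no MC903 library overlapped with an untreated one. Kit was 3.62-fold higher in MC903 KO than in MC903 WT skin on mean FPKM, a log2 difference of 1.57 ± 0.13 (SE; limma, adjusted p = 5.79e-06).

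After MC903, Kit fell by 1.17 on the log2 scale in wild type skin (SE 0.13; limma, adjusted p = 1.36e-05). It rose by 0.45 ± 0.13 in knockout-labelled skin (limma, adjusted p = 0.0138). That rise lost its call without MC903 KO replicate 2 (0.41, adjusted p = 0.054) and with the libraries scaled to TPM (0.30, adjusted p = 0.141). The difference of the responses was 1.62 ± 0.18 (limma, adjusted p = 0.000124). Between the untreated genotypes the difference was -0.05 (95% interval -0.34 to 0.23).

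Kitl encodes stem cell factor, which is needed by mast cells and melanocytes alike, and lies at chr10:100015630-100100416. It was measured at 11.3, 11.1 and 12 FPKM in MC903 KO libraries and at 5.22, 7.26 and 6.84 FPKM in MC903 WT libraries. Untreated skin gave 8.40, 8.73 and 8.89 FPKM in KO libraries and 11.3, 14.1 and 8.88 FPKM in WT libraries. MC903 WT was the lowest group without overlap, and untreated WT, the most variable, spanned the whole range of MC903 KO. The log2 difference between MC903 KO and MC903 WT skin was 0.80 ± 0.15 (SE; limma, adjusted p = 0.00118), a 1.78-fold difference of means.

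MC903 lowered Kitl by a log2 change of -0.77 ± 0.15 in wild type skin (limma, adjusted p = 0.000953). In knockout-labelled skin its value was 0.38 ± 0.15 and missed the threshold (limma, adjusted p = 0.0562). It passed in 6 of the 22 alternatives. Of these, the fit of the 2 groups compared, library weights and voom gave adjusted p-values of 0.00209, 0.00756 and 0.0472 (limma). The others left out MC903 WT replicate 1, untreated WT replicate 2 or untreated WT replicate 3 (limma, adjusted p = 0.0377, 0.0247 and 0.0185). The responses differed by 1.15 ± 0.21 (limma, adjusted p = 0.00179). In untreated skin the genotype difference was -0.36 (adjusted p = 0.15), and it passed only without untreated WT replicate 3 among the libraries left out (-0.52, adjusted p = 0.0217).

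Of 14 further genes of Kit signalling and ligand shedding, all tested, 12 were higher and 0 lower in MC903 KO than in MC903 WT skin, where 25.9% and 26.1% of all tested genes were, with a median log2 difference of 0.66 against -0.03 over all tested genes. Gab2, an adaptor of both Kit and FcεRI signalling, was 1.29 ± 0.12 higher (limma, adjusted p = 1.19e-05). Sh2b3, which encodes the adaptor Lnk and restrains Kit signals in haematopoietic cells, was 1.04 ± 0.08 higher (adjusted p = 3.76e-06), and Pik3r1, the regulatory subunit of PI3 kinase, 0.96 ± 0.09 (adjusted p = 1.36e-05). MC903 raised 7 and lowered 1 of the 14 in knockout-labelled skin, against 25% and 23% of all tested genes, and raised 3 and lowered 8 in wild type skin, against 32.6% and 30.3%. In untreated skin 1 of the 14 was higher and 0 lower, against 7.15% and 4.55% of all tested genes, shares too close to set these genes apart. The higher gene was Adam17, a sheddase that cuts membrane-bound ligands, at 0.37 ± 0.09 (limma, adjusted p = 0.0262). Its call ended when any untreated KO library was left out. Most of these genes act in many cell types of skin.

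The high-affinity IgE receptor is built from an α chain that binds IgE, encoded by Fcer1a, a β chain that amplifies the signal, encoded by Ms4a2, and a signalling γ chain shared with other Fc receptors, encoded by Fcer1g. The genes lie at chr1:173221284-173227214, chr19:11615523-11623719 and chr1:171229572-171234365 on mm10. All 3 were higher in MC903 KO than in MC903 WT skin. Their behaviour otherwise differed, since MC903 lowered only Ms4a2 among them in wild type skin and only Fcer1a differed between the untreated genotypes.

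Fcer1a was measured at 16.9, 14.0 and 24.6 FPKM in MC903 KO libraries and at 8.33, 8.57 and 6.98 FPKM in MC903 WT libraries. In untreated skin it was measured at 0.513, 1.42 and 0.914 FPKM in KO libraries, from 10, 27 and 17 reads, and at 3.57, 4.67 and 3.62 FPKM in WT libraries, from 71, 94 and 69 reads. The 4 groups did not overlap, in the order MC903 KO, MC903 WT, untreated WT and untreated KO. The genotype order was therefore opposite in the treatments, with a log2 difference of KO over WT of 1.13 ± 0.24 after MC903 (SE; limma, adjusted p = 0.00217) and of -1.66 ± 0.24 without treatment (adjusted p = 0.00277).

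The mean level of Fcer1a was 4.17-fold lower in untreated KO than in untreated WT skin. That call was kept in all 22 alternatives, including each library left out. MC903 raised Fcer1a by 3.72 ± 0.24 on the log2 scale in knockout-labelled skin, 19.5-fold on mean FPKM (limma, adjusted p = 9.21e-07). The rise in wild type skin was 0.93 ± 0.24, 2.01-fold (adjusted p = 0.00515), and it lost its call with the libraries scaled to TPM (0.52, adjusted p = 0.143). The difference of the responses was 2.79 ± 0.34 (adjusted p = 0.000179), the 13th highest of the 17646 genes, and the low untreated KO level enters that difference. As Trpv3 did not separate the untreated genotypes, the direction in untreated skin rests on the labels.

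Ms4a2 was measured at 12.6, 9.58 and 16.4 FPKM in MC903 KO libraries and at 2.47, 1.99 and 1.86 FPKM in MC903 WT libraries. Untreated skin gave 4.08, 4.45 and 4.31 FPKM in KO libraries and 4.16, 6.36 and 5.46 FPKM in WT libraries. The MC903 KO libraries were the highest and the MC903 WT libraries the lowest, with the overlapping untreated groups between them. The mean was 6.11-fold higher in MC903 KO than in MC903 WT skin, the widest such gap among the 10 genes, at a log2 difference of 2.33 ± 0.19 (SE; limma, adjusted p = 5.07e-06).

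MC903 changed Ms4a2 by 1.45 ± 0.19 in knockout-labelled skin (limma, adjusted p = 0.000105) and by -1.15 ± 0.19 in wild type skin (adjusted p = 0.000244). The responses differed by 2.60 ± 0.26 (adjusted p = 8.21e-05), the 17th highest of all tested genes. Between the untreated genotypes the difference was -0.27 (95% interval -0.68 to 0.14). Of the 50-base words in Ms4a2 transcripts 2.1% also occur in another gene, Ms4a4b, so reads from the 2 genes could be confused in that small part.

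Fcer1g was measured at 129.8, 156 and 182 FPKM in MC903 KO libraries and at 63.5, 75.6 and 83.3 FPKM in MC903 WT libraries. Untreated skin gave 44.4, 50.9 and 41.5 FPKM in KO libraries and 41.4, 46.9 and 40.9 FPKM in WT libraries. The order was MC903 KO, then MC903 WT, then the overlapping untreated groups. Its log2 difference between MC903 KO and MC903 WT skin was 1.06 ± 0.14 (SE; limma, adjusted p = 0.000102).

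MC903 raised Fcer1g by 1.76 ± 0.14 in knockout-labelled skin (limma, adjusted p = 3.87e-06) and by 0.77 ± 0.14 in wild type skin (adjusted p = 0.000538). The wild type rise lost its call with the libraries scaled to TPM (0.30, adjusted p = 0.091). The difference of the responses was 0.98 ± 0.20 (adjusted p = 0.00274). Macrophages, neutrophils and other myeloid cells also carry the γ chain. The summed level of 11 monocyte and macrophage markers was 1372 to 2094 FPKM in MC903 KO, 713 to 884 FPKM in MC903 WT, 868 to 937 FPKM in untreated KO and 617 to 895 FPKM in untreated WT libraries. Of these 11 markers, 9 were higher in MC903 KO than in MC903 WT skin, against 25.9% of all tested genes. Their part in the level of Fcer1g was not tested.

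Downstream of FcεRI, 21 genes of kinases, adaptors, phospholipases and calcium entry were all tested. In MC903-treated skin 17 were higher and 1 lower in knockout-labelled than in wild type skin, against 25.9% and 26.1% of all tested genes, with a median log2 difference of 1.29. Lyn, the Src family kinase that starts the signal, averaged 27.0 ± 3.37 FPKM in MC903 KO and 6.70 ± 0.863 FPKM in MC903 WT skin (SD, n = 3 each), a log2 difference of 1.93 ± 0.12 (SE; limma, adjusted p = 2.18e-06). Fgr, another Src family kinase, and Pik3cg, a leukocyte PI3 kinase catalytic subunit, differed by 1.93 ± 0.14 (adjusted p = 2.83e-06) and 1.94 ± 0.12 (adjusted p = 1.59e-06). The 1 lower gene was Plcg1, a phospholipase widely used outside leukocytes, at -0.42 ± 0.08 (adjusted p = 0.00108), a call that ended with the libraries scaled to TPM (-0.13, adjusted p = 0.237).

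MC903 raised 15 and lowered 2 of these 21 genes in knockout-labelled skin, against 25% and 23% of all tested genes. It raised 9 and lowered 5 in wild type skin, against 32.6% and 30.3% of all tested genes, shares too close to set these genes apart. The calcium store sensor gene Stim1 fell in both, with log2 changes of -0.82 ± 0.11 (limma, adjusted p = 0.000112) and -0.89 ± 0.11 (adjusted p = 2.51e-05). In untreated skin 3 were higher in knockout-labelled skin, against 7.15% of all tested genes, of which Plcg2, a leukocyte phospholipase, was the largest at 0.76 ± 0.10 (adjusted p = 0.00217). The calls of the other 2, Syk and Prkcb, ended when any of the 3 untreated KO libraries was left out. Neutrophils and macrophages express most of these genes too.

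Mrgprb1 and Mrgprb2 belong to the Mas-related family of G protein-coupled receptors. Mrgprb2 is the mast cell receptor through which basic peptides and several drugs cause degranulation in mice, and Mrgprb1 is likewise expressed by mouse connective tissue mast cells. In MC903-treated skin Mrgprb1 was higher in knockout-labelled than in wild type skin, while Mrgprb2 did not pass that test.

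Mrgprb1 was measured at 5.72, 5.32 and 5.71 FPKM in MC903 KO libraries and at 2.07, 2.32 and 2.49 FPKM in MC903 WT libraries. Untreated skin gave 4.95, 5.15 and 5.30 FPKM in KO libraries and 3.93, 6.71 and 5.56 FPKM in WT libraries. Only the MC903 WT libraries stood apart, below all 9 others. The log2 difference between MC903 KO and MC903 WT skin was 1.12 ± 0.15 (SE; limma, adjusted p = 0.000103). MC903 lowered Mrgprb1 in wild type skin by a log2 change of -1.05 ± 0.15 (adjusted p = 8.37e-05), and its value in knockout-labelled skin was 0.11 (95% interval -0.21 to 0.43). The responses differed by 1.16 ± 0.21 (adjusted p = 0.00146).

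Mrgprb2 was measured at 1.19, 1.89 and 2.39 FPKM in MC903 KO libraries and at 0.979, 1.48 and 1.49 FPKM in MC903 WT libraries. Untreated skin gave 2.98, 2.80 and 2.82 FPKM in KO libraries and 2.71, 4.89 and 2.64 FPKM in WT libraries. The MC903 groups overlapped with each other and lay below all untreated libraries. Between 34 and 92 reads per library stood behind the MC903 values. The difference between MC903 KO and MC903 WT skin was 0.34 (95% interval -0.18 to 0.85; limma, adjusted p = 0.254), and the difference of the responses was 0.51 (95% interval -0.22 to 1.24; adjusted p = 0.247). Mrgprb2 was the gene of the 10 that missed both tests.

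MC903 lowered Mrgprb2 in wild type skin by a log2 change of -1.07 ± 0.24 (limma, adjusted p = 0.00198). In knockout-labelled skin the value was -0.57 ± 0.24 (adjusted p = 0.0672). It passed without MC903 KO replicate 3 (-0.74, adjusted p = 0.0335) and without untreated WT replicate 2 (adjusted p = 0.0276). The log2 ratio of Mrgprb2 to Mrgprb1 within a library, on FPKM + 0.5, was -1.42 ± 0.41 in MC903 KO, -0.63 ± 0.15 in MC903 WT, -0.74 ± 0.08 in untreated KO and -0.61 ± 0.29 in untreated WT skin (SD, n = 3 each). All 3 MC903 KO libraries were below all 9 others.

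**Figure D3:**
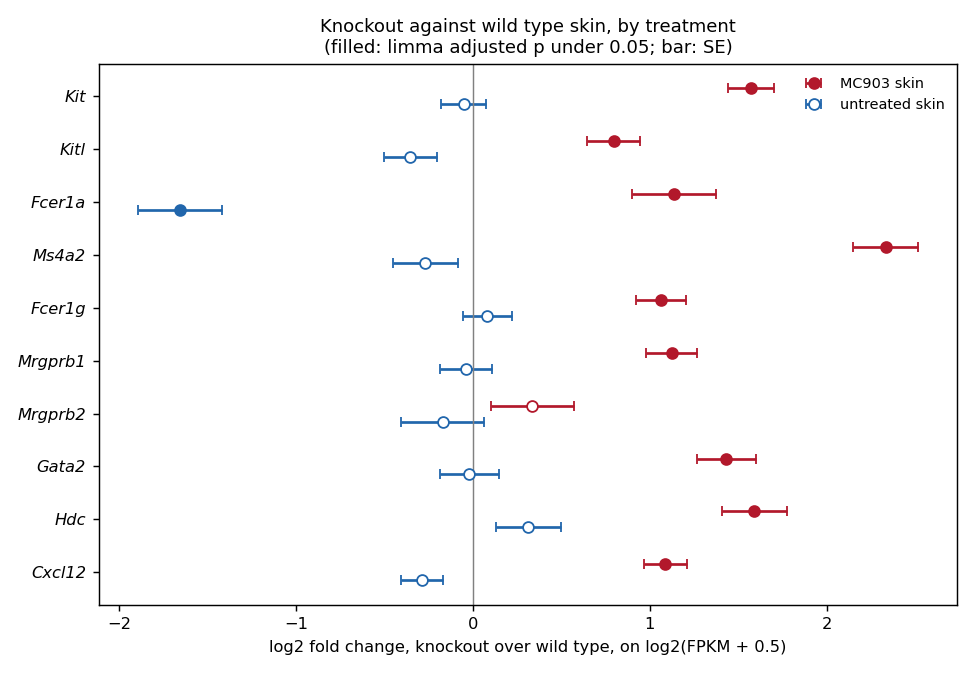
Log2 fold change of knockout-labelled over wild type skin on log2(FPKM + 0.5) (horizontal axis) for each gene (rows), in MC903 skin (red) and untreated skin (blue); points are estimates, bars are standard errors, and filled points passed limma at an adjusted p under 0.05. In MC903 skin 9 of the 10 genes are filled and right of 0, whereas in untreated skin Fcer1a alone is filled, left of 0.

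Gata2 encodes a zinc finger transcription factor required for mast cells and basophils, and it is also expressed in endothelium. The gene lies at chr6:88193891-88207032. It was measured at 12.2, 9.01 and 13.4 FPKM in MC903 KO libraries and at 4.21, 3.94 and 3.56 FPKM in MC903 WT libraries. Untreated skin gave 4.42, 4.42 and 4.54 FPKM in KO libraries and 4.0, 3.87 and 5.98 FPKM in WT libraries. Only the MC903 KO libraries stood apart, above the 9 others. The mean was 2.95-fold higher in MC903 KO than in MC903 WT skin, a log2 difference of 1.43 ± 0.17 (SE; limma, adjusted p = 4.45e-05).

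MC903 raised Gata2 by 1.26 ± 0.17 in knockout-labelled skin (limma, adjusted p = 0.000123). In wild type skin its value was -0.19 (95% interval -0.56 to 0.17; adjusted p = 0.324), which passed in the lower direction with the libraries scaled to TPM (-0.67, adjusted p = 0.00471). The difference of the responses was 1.45 ± 0.23 (adjusted p = 0.000813). The summed level of 7 endothelial markers was 74.1 to 97.5 FPKM in MC903 KO, 37.1 to 40.4 FPKM in MC903 WT, 66.3 to 73.3 FPKM in untreated KO and 58.2 to 76.5 FPKM in untreated WT libraries. These 7 markers were all higher in MC903 KO than in MC903 WT skin, against 25.9% of all tested genes. Their part in the level of Gata2 was not tested.

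Of 12 other transcription factor genes of mast cells and basophils, all tested, 8 were higher and 4 lower in MC903 KO than in MC903 WT skin, against 25.9% and 26.1% of all tested genes. Ikzf1, a factor of many leukocytes, was 1.92 ± 0.16 higher (limma, adjusted p = 6.09e-06). Spi1, the myeloid factor PU.1, was 1.38 ± 0.12 higher (adjusted p = 8.26e-06), and Tal1 1.16 ± 0.18 (adjusted p = 0.000356). Mitf, which acts in mast cells and melanocytes, was 0.43 ± 0.12 higher (adjusted p = 0.0098). Cebpa, a myeloid factor also found in fat and epidermis, was lower at -0.68 ± 0.11 (adjusted p = 0.000387).

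MC903 raised 5 and lowered 2 of these factors in knockout-labelled skin, against 25% and 23% of all tested genes. It raised 5 and lowered 4 in wild type skin, against 32.6% and 30.3% of all tested genes, shares too close to set these genes apart. Cebpb, which acts in myeloid cells and stressed epithelium, rose by 2.15 ± 0.18 in wild type skin (limma, adjusted p = 1.64e-06), and the responses differed by -1.67 ± 0.25 (adjusted p = 0.000573). In untreated skin 2 of the 12 were higher in knockout-labelled skin, against 7.15% of all tested genes, Spi1 at 0.53 ± 0.12 (adjusted p = 0.0188) and Cebpb at 0.74 ± 0.18 (adjusted p = 0.024). Both calls ended without untreated KO replicate 1 or 2, without untreated WT replicate 1 or 2, and in the fit of the 2 groups. Adjusted p-values were then 0.0502 to 0.0835 for Spi1 and 0.0713 to 0.118 for Cebpb. The Spi1 call also ended without untreated KO replicate 3 (adjusted p = 0.0516), and the Cebpb call with no filter on low values (adjusted p = 0.0514).

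Hdc encodes histidine decarboxylase, the enzyme that makes histamine from histidine, and lies at chr2:126593667-126619299. It was measured at 28.3, 30.6 and 30.2 FPKM in MC903 KO libraries and at 6.99, 13.0 and 9.43 FPKM in MC903 WT libraries. Untreated skin gave 2.03, 1.83 and 1.57 FPKM in KO libraries and 1.12, 1.65 and 1.33 FPKM in WT libraries. The MC903 KO libraries were the highest, the MC903 WT libraries came next without overlap, and the untreated groups overlapped. The mean was 3.03-fold higher in MC903 KO than in MC903 WT skin, a log2 difference of 1.59 ± 0.18 (SE; limma, adjusted p = 4.46e-05).

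MC903 raised Hdc by 3.71 ± 0.18 in knockout-labelled skin, 16.4-fold on mean FPKM (limma, adjusted p = 1.34e-07). In wild type skin it raised Hdc by 2.43 ± 0.18, 7.18-fold (adjusted p = 8.12e-07), and the responses differed by 1.28 ± 0.26 (adjusted p = 0.003). The untreated genotypes differed by 0.31 (95% interval -0.09 to 0.72; adjusted p = 0.295). Kit fell in the same wild type skin in which Hdc rose. The log2 ratio of Hdc to Kit within a library was 2.35 ± 0.09 in MC903 KO and 2.33 ± 0.39 in MC903 WT, against -0.91 ± 0.16 in untreated KO and -1.28 ± 0.11 in untreated WT skin (SD, n = 3 each). The ranges of the MC903 genotypes overlapped.

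Basophils and neutrophils can also express Hdc. The summed level of 7 basophil markers was 124 to 145 FPKM in MC903 KO, 48.1 to 61.6 FPKM in MC903 WT, 2.86 to 3.76 FPKM in untreated KO and 2.31 to 4.70 FPKM in untreated WT libraries, and none was at 0 in all 3 libraries of a group. The basophil protease gene Mcpt8 averaged 62.1 ± 9.38 FPKM in MC903 KO, 12.4 ± 1.44 FPKM in MC903 WT, 0.0888 ± 0.112 FPKM in untreated KO and 0.0674 ± 0.0277 FPKM in untreated WT skin (SD, n = 3 each). Mcpt8 was thus only part of the sum, and the list also holds cytokine and chemokine genes. In wild type skin MC903 raised Mcpt8 by 4.51 ± 0.15, Ccl3 by 4.96 ± 0.31 and Prss34 by 0.89 ± 0.20 on the log2 scale. Between the MC903 genotypes 4 of the 7 were higher, against 25.9% of all tested genes. Ccl3 did not pass there, at 0.27 ± 0.31 (limma, adjusted p = 0.488). The summed level of 8 neutrophil markers was 2117 to 2768 FPKM in MC903 KO, 1011 to 1245 FPKM in MC903 WT, 28.2 to 191 FPKM in untreated KO and 11.4 to 33.1 FPKM in untreated WT libraries, with Ly6g at 0 in all untreated libraries. Of the 7 tested neutrophil markers 5 were higher in MC903 KO than in MC903 WT skin. S100a8 and S100a9 did not pass, at 1.16 ± 0.65 and 1.17 ± 0.64 (SE; limma, adjusted p = 0.153 and 0.15). The part of these cells in Hdc, Fcer1a, Ms4a2 and Gata2 was not tested.

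Among 11 genes of histamine storage, breakdown and receptors, 9 were tested, and Aoc1 and Hrh3 stayed under the filter. In MC903-treated skin 7 were higher and 0 lower in knockout-labelled than in wild type skin, against 25.9% and 26.1% of all tested genes, with a median log2 difference of 0.72. Srgn encodes serglycin, the granule proteoglycan that holds histamine and proteases. It averaged 130.6 ± 10.4 FPKM in MC903 KO and 44.3 ± 13.1 FPKM in MC903 WT skin (SD, n = 3 each), a log2 difference of 1.59 ± 0.19 (limma, adjusted p = 6.1e-05). The vesicular amine transporter gene Slc18a2, which loads histamine into granules, was 0.60 ± 0.15 higher (adjusted p = 0.00724). The receptor genes Hrh2 and Hrh4 were 1.28 ± 0.19 (adjusted p = 0.000196) and 1.31 ± 0.24 (adjusted p = 0.000924) higher. In wild type skin MC903 raised Srgn, whereas it raised 0 and lowered 4 of the 6 tested mast cell protease genes. Srgn therefore did not follow those genes there. The part of cells other than mast cells in the levels of Srgn and the other genes of this list was not tested.

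Hnmt and Maob, genes of enzymes that break histamine down, fell in wild type skin, where Hdc rose. The breakdown enzyme gene Aoc1 was not tested. MC903 lowered Hnmt, the histamine N-methyltransferase, by a log2 change of -1.51 ± 0.17 (limma, adjusted p = 1.88e-05) and Maob, a monoamine oxidase acting on its methylated product, by -2.04 ± 0.11 (adjusted p = 9.81e-08). In knockout-labelled skin Maob fell by 0.84 on the log2 scale (SE 0.11; adjusted p = 0.000141), while Hnmt was at -0.26 (adjusted p = 0.234). Hnmt and Maob were higher in MC903 KO than in MC903 WT skin, by 0.72 ± 0.17 and 0.86 ± 0.11 (limma, adjusted p = 0.00511 and 9.83e-05). MC903 raised 4 and lowered 1 of the 9 genes in knockout-labelled skin, against 25% and 23% of all tested genes. It raised 2 and lowered 4 in wild type skin, against 32.6% and 30.3%. None of the 9 passed between the untreated genotypes, where 11.7% of all tested genes did, a share too close to set these genes apart.

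Cxcl12 encodes a chemokine of fibroblasts, endothelium and other stromal cells that attracts leukocytes, mast cell precursors among them, through the receptor Cxcr4. The gene lies at chr6:117168535-117181367. It was measured at 35.0, 37.7 and 51.8 FPKM in MC903 KO libraries and at 18.2, 18.9 and 19.9 FPKM in MC903 WT libraries. Untreated skin gave 24.4, 24.3 and 23.8 FPKM in KO libraries and 28.9, 30.5 and 29.5 FPKM in WT libraries. The 4 groups did not overlap, in the order MC903 KO, untreated WT, untreated KO and MC903 WT. The log2 difference between MC903 KO and MC903 WT skin was 1.09 ± 0.12 (SE; limma, adjusted p = 3.39e-05), a 2.19-fold difference of means.

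MC903 changed Cxcl12 by 0.75 ± 0.12 in knockout-labelled skin (limma, adjusted p = 0.000481) and by -0.63 ± 0.12 in wild type skin (adjusted p = 0.000788). The responses differed by 1.38 ± 0.17 (adjusted p = 0.000207). Between the untreated genotypes the difference of -0.29 ± 0.12 missed the threshold (adjusted p = 0.144) although the libraries did not overlap, and it passed without MC903 KO replicate 3 (adjusted p = 0.024). The summed level of 7 fibroblast markers was 1699 to 2183 FPKM in MC903 KO, 527 to 652 FPKM in MC903 WT, 4456 to 5158 FPKM in untreated KO and 1118 to 2014 FPKM in untreated WT libraries. The collagen genes Col1a1, Col1a2 and Col3a1 carried most of that sum in untreated KO skin, whereas Pdgfra, a growth factor receptor of fibroblasts, averaged 26.7 ± 3.54 FPKM in MC903 KO, 8.99 ± 1.63 FPKM in MC903 WT, 19.8 ± 1.35 FPKM in untreated KO and 13.9 ± 2.56 FPKM in untreated WT skin (SD, n = 3 each). All 7 fibroblast markers were higher in MC903 KO than in MC903 WT skin, against 25.9% of all tested genes, and their part in the level of Cxcl12 was not tested.

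Of 5 further genes around Cxcl12, 3 were higher and 2 lower in MC903 KO than in MC903 WT skin, against 25.9% and 26.1% of all tested genes. Cxcr4 was measured at 27.4, 28.6 and 40.8 FPKM in MC903 KO libraries and at 5.62, 6.63 and 6.16 FPKM in MC903 WT libraries. Untreated skin gave 4.30, 4.61 and 4.25 FPKM in KO libraries and 5.22, 6.28 and 3.44 FPKM in WT libraries. The receptor was thus high in the MC903 KO libraries alone, with a log2 difference of 2.28 ± 0.19 from MC903 WT skin (SE; limma, adjusted p = 6.5e-06). Ackr3, a scavenging receptor for Cxcl12, fell by 1.06 on the log2 scale after MC903 in wild type skin (SE 0.14; adjusted p = 4.42e-05) and was 0.85 ± 0.14 higher in MC903 KO than in MC903 WT skin (adjusted p = 0.000397). Dpp4, a peptidase that inactivates the Cxcl12 protein, rose by 1.27 ± 0.11 after MC903 in wild type skin (adjusted p = 3.12e-06). Between the MC903 genotypes it differed by -0.33 ± 0.11 (adjusted p = 0.0303). In untreated skin 2 of the 5 were higher in knockout-labelled skin, against 7.15% of all tested genes. These were Dpp4 at 0.69 ± 0.11 (adjusted p = 0.00515) and Cxcl14 at 0.97 ± 0.20 (adjusted p = 0.0125). The Cxcl14 call ended in the fit of the 2 groups (adjusted p = 0.0786). Any link of these genes to the level of Cxcl12 was not tested.

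**Figure D4:**
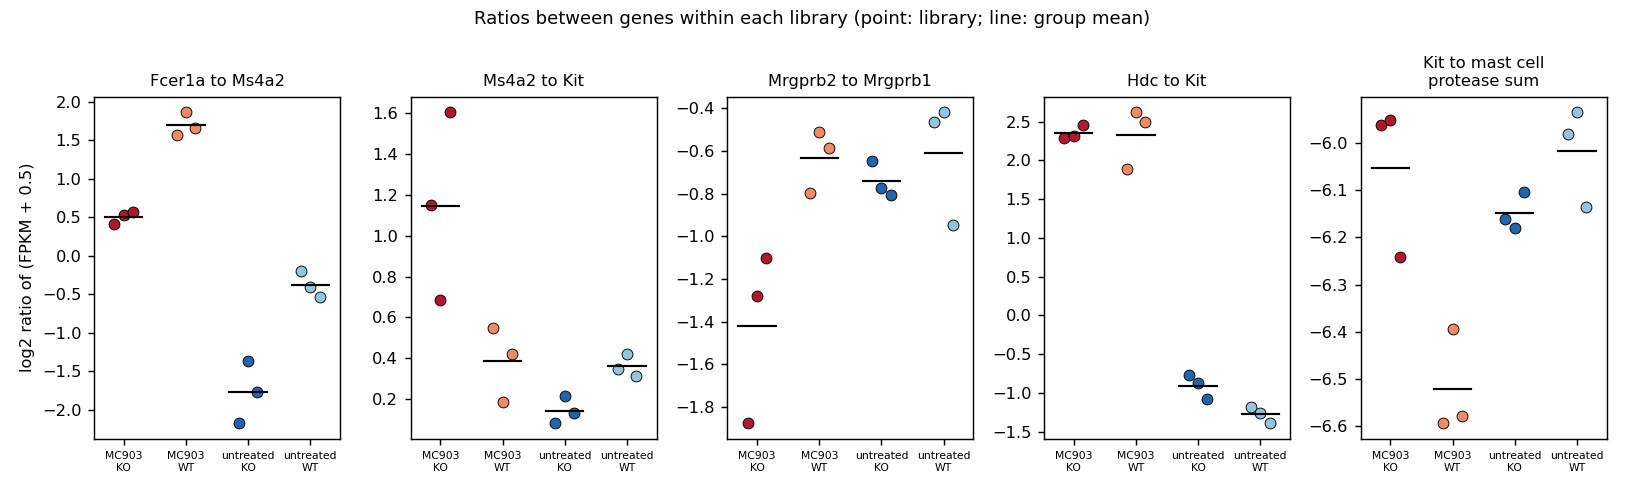
Log2 ratio of FPKM + 0.5 between genes within a library (vertical axis) in MC903 KO, MC903 WT, untreated KO and untreated WT skin; points are libraries and lines group means. The ratio of Fcer1a to Ms4a2 is highest in MC903 WT libraries and lowest in untreated KO libraries, and that of Hdc to Kit is above 1 in both MC903 groups and below 0 in both untreated groups.

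Ratios within a library set genes side by side on FPKM + 0.5, so low values depend on the added 0.5 and, through it, on the scaling. Pseudocounts of 0.1 and 1 moved group means of these ratios by up to 0.39, and for 4 of the 7 ratios computed the order of the group means stayed the same. The log2 ratio of Fcer1a to Ms4a2 was 0.50 ± 0.08 in MC903 KO, 1.70 ± 0.15 in MC903 WT, -1.77 ± 0.40 in untreated KO and -0.38 ± 0.17 in untreated WT skin (SD, n = 3 each). The 4 groups did not overlap, so the α and β chain genes did not change in step. The log2 ratio of Ms4a2 to Kit was 1.15 ± 0.46 in MC903 KO, 0.38 ± 0.18 in MC903 WT, 0.14 ± 0.07 in untreated KO and 0.36 ± 0.05 in untreated WT skin. All 3 MC903 KO libraries were above the 9 others. These ratios were described and not tested.

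Against the summed level of the proteases Cma1, Mcpt4, Tpsb2 and Cpa3, Kit stood at a log2 ratio of -6.05 ± 0.17 in MC903 KO, -6.52 ± 0.11 in MC903 WT, -6.15 ± 0.04 in untreated KO and -6.02 ± 0.11 in untreated WT skin (SD, n = 3 each). Ms4a2 stood at -4.90 ± 0.33 in MC903 KO, -6.14 ± 0.08 in MC903 WT, -6.00 ± 0.06 in untreated KO and -5.66 ± 0.16 in untreated WT skin. Ms4a2 was therefore high relative to the proteases in MC903 KO skin, whereas Kit there lay within the range of the untreated libraries or close to it. Of the 8 mast cell proteases 6 were tested, and 4 of these were higher and 0 lower in MC903 KO than in MC903 WT skin, against 25.9% and 26.1% of all tested genes. The difference was largest, at 1.71 ± 0.13, for the carboxypeptidase gene Cpa3 (limma, adjusted p = 4.13e-06), which mast cells and basophils share. It was 1.28 ± 0.13 for Mcpt4 (adjusted p = 2.19e-05), 0.94 ± 0.11 for Cma1 (adjusted p = 4.26e-05) and 0.75 ± 0.23 for Tpsg1 (adjusted p = 0.0178). The tryptase genes Tpsb2 and Tpsab1 did not pass, at 0.09 ± 0.19 and -0.105 ± 0.23. Tpsb2 averaged 40.7 ± 5.37 FPKM in MC903 KO and 38.4 ± 6.36 FPKM in MC903 WT skin. The protease sums include Cpa3 and are therefore not of mast cells alone.

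**Figure D5:**
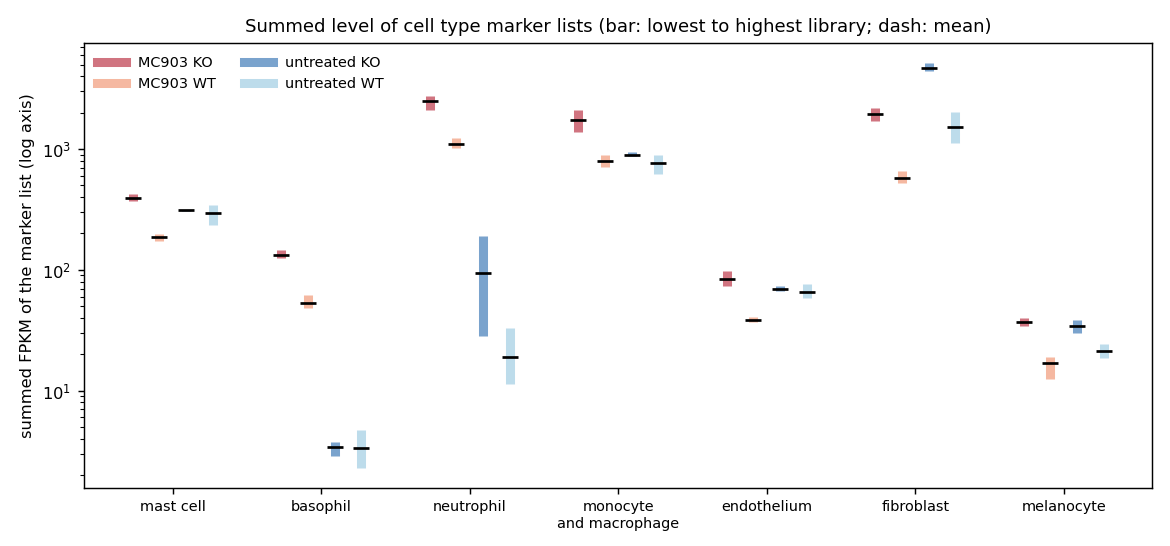
Summed FPKM of cell type marker lists (vertical axis, log scale) in MC903 KO, MC903 WT, untreated KO and untreated WT skin; bars span the lowest to the highest of 3 libraries and dashes mark means. Each of the 7 lists shown is higher in every MC903 KO library than in every MC903 WT library, and only the basophil and neutrophil lists are higher in both MC903 groups than in both untreated groups.

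The summed level of the 8 mast cell proteases was 369 to 424 FPKM in MC903 KO, 173 to 198 FPKM in MC903 WT, 305 to 313 FPKM in untreated KO and 233 to 342 FPKM in untreated WT libraries. Melanocytes carry Kit as well, and the 7 melanocyte markers summed to 34.6 to 39.8 FPKM in MC903 KO, 12.6 to 19.1 FPKM in MC903 WT, 30.1 to 38.5 FPKM in untreated KO and 18.6 to 24.1 FPKM in untreated WT libraries. The 7 basal keratinocyte markers ran the other way, at 3489 to 4877 FPKM in MC903 KO, 12360 to 17300 FPKM in MC903 WT, 2012 to 2302 FPKM in untreated KO and 1726 to 2019 FPKM in untreated WT libraries. All 7 of them were lower in MC903 KO than in MC903 WT skin, against 26.1% of all tested genes. The part of these cell types in the levels of the 10 genes was not tested.

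Genes with the most similar profile were sought among 12908 tested genes with a mean of at least 1 FPKM, as Pearson's r of log2(FPKM + 0.5) over the 12 libraries. The libraries form 4 groups, so r is a description and carries no p. The nearest gene to Kit was the chymase gene Cma1 (r = 0.98). Nearest to Fcer1g were Ms4a6d (r = 0.99) and the Fc receptor gene Fcgr2b (r = 0.99), and nearest to Hdc was the neutrophil-attracting chemokine gene Cxcl5 (r = 0.99). For Gata2 it was Cd200r3 (r = 0.95), which stands both in the basophil marker list and in the list of other mast cell surface genes. Ms4a2 and Cxcl12 shared P2ry12 and Inpp4b among their 3 nearest genes, with r of 0.96 to 0.97. The nearest were Mier1 for Kitl (r = 0.97), Pno1 for Fcer1a (r = 0.97), Slc2a13 for Mrgprb1 (r = 0.97) and Acadsb for Mrgprb2 (r = 0.94).

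Among the 10 genes themselves, r was 0.97 between Fcer1g and Hdc, 0.96 between Ms4a2 and Cxcl12 and 0.95 between Kit and Mrgprb1 over the same 12 libraries. Kit and Hdc had an r of 0.04, and Kit and Fcer1a of 0.03. Mrgprb2 had negative r with Fcer1a (-0.53), Fcer1g (-0.49), Gata2 (-0.21) and Hdc (-0.65).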

How the data were processed

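Poly-A RNA of 12 mouse skin libraries was sequenced, and the 3 dorsal root ganglion samples of the series were not analysed here. The submitters' processing notes name the build mm10 and the counter featureCounts, while aligner, annotation release and FPKM tool are not given in the sources used. The authors deposited FPKM per gene. FPKM times gene length, scaled by 1 factor per library, was whole within 0.01 for 100% of values and summed to 16869716 to 18485698 reads; the implied denominators were 0.917 to 1.115 times these totals, so the deposited values were taken as already scaled between libraries. Read counts cover counting error only. Strand was not stated as used. No gene of the 10 overlapped another gene in the table, and all 10 had the coordinates of GENCODE M21. Replicates differed by more than counting noise in every group (chi-square per degree of freedom 6.46 to 60.1).

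Genes with at least 0.5 FPKM in at least 3 libraries (17646 genes, all 10 members among them) were fitted with limma 3.58.1 in R 4.3.3 on log2(FPKM + 0.5), with 4 group means, a mean trend and 8 residual degrees of freedom. The pseudocount makes fold changes of low genes smaller than ratios of FPKM. Two-sided p-values were adjusted by Benjamini-Hochberg over the 17646 genes within each of 5 comparisons, and the threshold was 0.05. All adjusted p-values in these texts come from limma; an exact permutation test of 3 against 3 libraries cannot go below 0.1. The fit was also tried on simulated counts with the same spread setting for all genes and libraries. Replicates here differed unevenly, so that trial does not check the results for these libraries. Ratios, levels and correlations were described without a test. The comparisons of MC903 with untreated skin and of the genotypes share libraries.

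The members, gene lists and alternatives were chosen with earlier results of these data known. Named besides the members were Trpv3, the 3 genes nearest to each member by Pearson's r and up to 3 genes by adjusted p from each of 6 gene lists in each comparison. Plcg1, Slc18a2, Hrh4, Mitf, Cebpa, Cpa3, Il1rl1, Ltc4s, Hpgds, Mrgprb3 and the knockout-labelled values of Stim1 and Hnmt, and the levels of Cma1, Tpsb2 and Mcpt8, were chosen after their values were seen. So were the log2 values of Cma1, Mcpt4, Tpsg1, Tpsb2, Tpsab1, Mcpt8, Prss34, Ccl3, S100a8 and S100a9, and those of Dpp4 and Hnmt between the MC903 genotypes. Cd200r3, Gab2, Mitf, Siglecf and Stat5b each stand in 2 of the lists. Promoter windows are from RefSeq, build GRCm38.p6, in which all 10 members had a window. Alternatives were pseudocounts of 0.1 and 1, no filter and a filter of 1 FPKM, TPM and total-read scaling, voom on the recovered reads, library weights, the replicate number as a block, fits of the 2 groups compared and leaving out each library. Pseudocounts of 0.1 and 1 for the ratios were added after seeing the data.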

Additional observations from a re-analysis of the deposited data

Results flagged for a closer look

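The MC903 response differed between the genotypes for 9 of the 10 genes, by limma's test of the difference itself (KO response minus WT response, log2, adjusted over all tested genes). Among the receptor genes the difference was 1.62 for Kit, 2.79 for Fcer1a, 2.60 for Ms4a2, 0.98 for Fcer1g and 1.16 for Mrgprb1. It was 1.15 for Kitl, 1.45 for Gata2, 1.28 for Hdc and 1.38 for Cxcl12. The adjusted p-values ran from 8.21e-05 for Ms4a2 to 0.003 for Hdc. Of all tested genes 39.7% passed this test in either direction.

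The same test also passed for genes of the lists described, and the 3 with the lowest adjusted p in each list are given. Positive and negative differences that passed numbered 15 and 2 of 21 in FcεRI signalling and 8 and 0 of 14 in the Kit pathway. They numbered 7 and 0 of 9 in histamine handling and 10 and 0 of 19 among other surface and lipid mediator genes. Transcription factors gave 5 and 3 of 12, and genes around Cxcl12 2 and 2 of 5. Of all tested genes 20% and 19.7% passed. In FcεRI signalling the difference was 1.75 for Pik3cg, 1.68 for Lyn and 1.57 for Fgr. In the Kit pathway it was 0.96 for Sh2b3, 1.10 for Pik3r1 and 1.24 for Gab2. In histamine handling it was 1.2 for Maob, 1.64 for Srgn and 1.37 for Hrh2. Among other mast cell surface and lipid mediator genes it was 1.67 for Alox5, 1.56 for Ptger3 and 1.85 for Cd200r3. Among transcription factors it was 1.52 for Ikzf1, -1.67 for Cebpb and -1.21 for Zfpm1. Around Cxcl12 it was 2.41 for Cxcr4, -1.03 for Dpp4 and 1.06 for Ackr3.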

How the results depend on the processing

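Over 50 results of the 10 genes and 1090 refits, 1058 kept direction and side of the threshold, 4 lost and 18 gained a call and 10 changed sign. The 9 members higher in MC903 KO than in MC903 WT skin, and the 9 that responded differently, kept that count in every alternative. In knockout-labelled skin the members lowered by MC903 numbered 1 in place of 0 (Mrgprb2) with TPM, library weights, the replicate block and only the 2 groups, and 0 to 1 with a library left out; Mrgprb1 was -0.071 with TPM. In wild type skin the members raised by MC903 numbered 1 in place of 3 with TPM. Between the untreated genotypes 2064 genes were called, 6548 with library weights, where untreated WT replicate 1 had a weight of 4.61 and replicate 3 of 0.218, 613 in the fit of 2 groups and 714 to 3561 with a library left out. With library weights the members there numbered 1 higher (Hdc) and 3 lower (Kitl, Fcer1a and Cxcl12), against 1 to 2 lower with a library left out.

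Signs changed between the untreated genotypes, none of them called. With library weights the values were 0.18 for Kit, 0.26 for Mrgprb1, 0.0077 for Mrgprb2 and 0.12 for Gata2. With a library left out they ran from -0.199 to 0.0437 for Kit, -0.231 to 0.121 for Mrgprb1 and -0.306 to 0.0835 for Mrgprb2, each above 0 without untreated WT replicate 2. The range was -0.123 to 0.162 for Gata2, above 0 without untreated WT replicate 3, and -0.0011 to 0.145 for Fcer1g, below 0 without untreated KO replicate 2. The cause was not tested. Replicate numbers did not pair the libraries (correlation of deviations -0.13 to 0.17); with the replicate block 8471, 11176, 2124, 9304 and 7046 genes were called in the 5 comparisons, against 8457, 11109, 2064, 9187 and 7008 without it, and the only call among members that changed was that of Mrgprb2 in knockout-labelled skin (-0.57, limma adjusted p = 0.0466). With TPM the median log2 change of all genes was -0.18 for MC903 in knockout-labelled and -0.40 in wild type skin, 0.24 between the MC903 genotypes and 0.25 for the difference of responses. Higher calls made up 33.5%, 26.7%, 66.8%, 73.7% and 72.2% of calls with TPM and 45.2%, 40.0%, 49.7%, 57.4% and 61.9% with total-read scaling, against 52.1%, 51.8%, 61.1%, 49.8% and 50.3% as deposited, in the order MC903 in knockout-labelled skin, MC903 in wild type skin, genotype in untreated skin, genotype in MC903 skin and difference of responses. Fcer1a in untreated KO skin rested on 10 to 27 reads per library, the thinnest of any value given for the 10 genes.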

Other observations

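Other surface and lipid mediator genes of mast cells also differed between the genotypes after MC903. Of 20 such genes 19 were tested, since Mrgprb8 stayed under the filter, and 13 were higher and 1 lower in MC903 KO than in MC903 WT skin, where 25.9% and 26.1% of all tested genes were. Alox5, the 5-lipoxygenase that starts leukotriene synthesis, differed by 1.85 ± 0.11 on the log2 scale (SE; limma, adjusted p = 1.84e-06). The complement receptor gene C5ar1 differed by 1.69 ± 0.12 (adjusted p = 2.69e-06), and Il1rl1, the receptor for IL-33, by 1.26 ± 0.21 (adjusted p = 0.00052). The 1 lower gene was Ltc4s, the leukotriene C4 synthase gene, at -1.16 ± 0.26 (limma, adjusted p = 0.00318). Hpgds and Mrgprb3 were among those that did not pass, at -0.06 ± 0.21 and -0.40 ± 0.33 (limma, adjusted p = 0.837 and 0.328). The part of other leukocytes in the levels of these genes was not tested. MC903 raised 12 and lowered 1 of the 19 in knockout-labelled skin, against 25% and 23% of all tested genes, and raised 7 and lowered 3 in wild type skin, against 32.6% and 30.3%. Csf2rb and Csf2rb2, signalling chains for IL-3 and related cytokines, rose in both, by 2.55 ± 0.14 and 2.42 ± 0.14 in knockout-labelled skin and by 1.56 ± 0.14 and 1.06 ± 0.14 in wild type skin. They are near-identical copies, so reads may be split between them and each value is uncertain. Ptger3, a prostaglandin E2 receptor of mast cells and sensory neurons, fell by 1.31 on the log2 scale in wild type skin (SE 0.11; adjusted p = 2.47e-06), and its value in knockout-labelled skin was 0.24. In untreated skin Ptger3 was lower in knockout-labelled skin, at -0.70 ± 0.11 (adjusted p = 0.00515). C5ar1 at 0.45 ± 0.12 (adjusted p = 0.034) and Csf2rb at 0.50 ± 0.14 (adjusted p = 0.0457) were the 2 higher genes of the 19, against 7.15% of all tested genes. Both calls ended when any untreated KO library was left out, with adjusted p-values of 0.0753 to 0.103 for C5ar1 and 0.0748 to 0.151 for Csf2rb, which also lost its call with the replicate block (adjusted p = 0.0606).

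Marker lists of cell types other than those already described moved as follows in MC903 KO against MC903 WT skin. Of all tested genes 25.9% were higher and 26.1% lower in that comparison. Of 6 tested dendritic and Langerhans cell markers 5 were higher and 1 lower, of 4 tested NK and innate lymphoid cell markers 2 were higher, and both tested eosinophil markers were higher. All 6 Schwann cell markers were higher, all 6 skeletal muscle markers were lower, and of 5 adipocyte markers 2 were higher and 1 lower. Against those shares, the counts of the NK and innate lymphoid cell, eosinophil and adipocyte lists are too small to set them apart. Among the lists whose sums are given above, 4 of 7 basophil, 5 of 7 tested neutrophil, all 7 melanocyte and all 7 fibroblast markers were higher, and none was lower. The eosinophil granule gene Epx was listed at 0 in the MC903 KO, untreated KO and untreated WT libraries and reached at most 0.0225 FPKM in MC903 WT libraries. The part of these cells in the levels of the 10 genes was not tested.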
